A study of Homo sapiens with 5 samples.

Results

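The genes for the ribosomal proteins of the cytosol were followed in 5 clones of the human leukaemia cell line Nalm6, which grew from a B-cell precursor acute lymphoblastic leukaemia. Genes were taken as members when a probe set with exactly 1 annotated symbol named a cytosolic ribosomal protein, and the probe set with the highest mean was kept for each gene. This gave 66 genes, read from 101 probe sets, among the 18417 genes of the array. Of these, 35 encode core proteins of the large subunit, 22 encode core proteins of the small subunit and 9 are paralogues of core genes. RPL17 was left out because it lies on chromosome 18, and RPSA, RPLP0, RPS27A and RACK1 were not analysed here. A further 11 genes were reached solely by probe sets annotated with several symbols and were used as an alternative. The 2 Y-linked paralogues are counted among the members and their values are not given.

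Of the 5 clones, 3 carried a short hairpin RNA (shRNA) against MondoA and 2 carried a nonsense shRNA and served as controls, with 1 array per clone. MondoA is a glucose-sensing transcription factor that binds DNA together with its partner MLX. All clones were grown in RPMI medium with 20% heat-inactivated fetal bovine serum, glutamine, gentamycin and 200 mg/dl glucose, and 200 ng of total RNA from each was amplified for a whole-transcript Affymetrix array. Values are RMA (robust multi-array average) levels on a scale taken as log2, and differences are MondoA shRNA minus control shRNA. Probes differ in how brightly they bind, so readings of different genes do not rank their amounts of RNA.

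A cytosolic ribosome is built from a small subunit, which holds the messenger RNA and decodes it, and a large subunit, which forms peptide bonds and releases the chain through its exit tunnel. Each protein is normally used once per ribosome, except the stalk proteins, and the genes are among the most strongly expressed in growing cells. Their messenger RNAs typically begin with a C followed by an unbroken run of pyrimidines, the TOP (terminal oligopyrimidine) tract. LARP1 and the mTORC1 kinase control the translation of such messages through the tract, so that much of the known control of these genes acts on translation and is not read by an array of RNA levels. Germline loss of 1 copy of several of these genes, RPS19 foremost, causes Diamond-Blackfan anaemia. Released RPL5 and RPL11 bind MDM2 and stabilise p53.

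The start sites are shown because they carry the feature that sets these genes apart in sequence. Windows of 30 bases, with 15 on each side of the RefSeq start, were read from RefSeq on GRCh38.p14, 5′ to 3′ on the strand of the gene. Capitals mark a tract that begins at the start base with C and continues with at least 4 pyrimidines. The first 6 windows belong to genes described below that hold a tract.
RPS24 (chr10:78033848-78033877, + strand): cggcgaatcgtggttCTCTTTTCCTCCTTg
RPL35 (chr9:124861943-124861972, - strand): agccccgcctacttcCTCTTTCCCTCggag
RPS9 (chr19:54200843-54200872, + strand): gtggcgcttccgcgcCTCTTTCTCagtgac
RPS19 (chr19:41860240-41860269, + strand): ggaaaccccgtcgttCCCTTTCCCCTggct
RPS3A (chr4:151099613-151099642, + strand): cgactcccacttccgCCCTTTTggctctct
RPLP2 (chr11:809952-809981, + strand): ttgcgtcggcgccttCCTTTTCCTCCCTgt
The next 4 windows show RPL22 beside its paralogue RPL22L1, which both begin with a tract, and then RPL27 and RPL10A. The annotated start base of RPL27 and of RPL10A does not begin one. In the RPL10A window a C with an unbroken run of pyrimidines follows shortly after that base.
RPL22 (chr1:6199581-6199610, - strand): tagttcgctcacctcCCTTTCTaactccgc
RPL22L1 (chr3:170870181-170870210, - strand): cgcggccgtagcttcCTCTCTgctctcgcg
RPL27 (chr17:42998404-42998433, + strand): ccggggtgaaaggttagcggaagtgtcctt
RPL10A (chr6:35468386-35468415, + strand): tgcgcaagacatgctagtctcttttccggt

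A start window was found for 55 of the 66 members, 48 of them core genes. The tract began at an annotated start base in 37 of the 48 core genes (77.1%), in 23 of 29 large-subunit genes and in 14 of 19 small-subunit genes. It did so in 2 of 7 paralogues, in 6 of 66 genes for mitochondrial ribosomal proteins (9.09%) and in 988 of 15843 protein-coding genes with a window (6.24%). The tracts of the core genes and paralogues ran from 5 to 16 bases with a median of 8. With the start allowed to move by up to 5 bases, 91.7% of core genes and 28% of all protein-coding genes held one. These shares describe annotated starts, and the start in use in these cells was not measured.

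Promoters of 300 bases, with 250 before the start and 50 after it, were searched on both strands for 3 motifs, none of which is contained in another. The E-box CACGTG is the core of the sites that MondoA and MLX, like MYC and MAX, bind, where a pair of E-boxes forms the carbohydrate response element. It stood in 3 of the 48 core promoters (6.25%), those of RPL19, RPS19 and RPS28, and in 10.9% of all protein-coding genes. The ETS motif CCGGAAG stood in 37.5% of core promoters, in 43.9% of those for mitochondrial ribosomal proteins and in 16.5% of all. TATAAA stood in 8.33% of core promoters and in 12.4% of all. A match to these letters is not a bound site.

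The 5 arrays were close to each other, with correlations over genes of 0.993 to 0.998. RNA of MLXIP, which encodes MondoA, read 6.42, 6.47 and 6.29 in the clones labelled MondoA shRNA, against 6.42 and 6.42 in control clones. Its difference was -0.03 (limma adjusted p = 0.959), so the arrays did not show less MLXIP RNA and directions below refer to the labels. Of 9 measured B-precursor markers, 0 lay below the median gene level of 4.15 in any array, and their summed levels were 75.65 to 77.61 in MondoA shRNA clones and 75.28 to 75.45 in control clones. These sums hide markers that lay apart between the groups in opposite directions, with CD22 (1.27), CD79A (0.91) and CD79B (0.25) higher and DNTT (-1.19) and RAG1 (-0.45) lower in the MondoA shRNA clones, none past the adjusted limma test. Their part in the values of the ribosomal protein genes was not tested. Of 15 measured markers of T, natural killer, myeloid, erythroid and fibroblast cells, 13 lay below that level in every array, with sums of 49.07 to 49.48 in MondoA shRNA clones and 48.89 to 49.21 in control clones. In such bulk RNA, fewer cells of a type and less RNA per cell cannot be told apart.

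No ribosomal protein gene differed between the groups by the adjusted test. By limma with Benjamini-Hochberg adjustment over all 18417 genes, 0 of the 66 members passed, against 0% of all genes, and the lowest adjusted p of a member was 0.833. Differences ran from -0.19 to 0.44 with a median of 0.04, against 0.00 over all genes and -0.02 over 139 bright genes that are no members (mean level above 10). Of the members, 40 lay above 0, 26 lay below, and 45 (68.2%) lay within 0.1 of 0, as did 69.5% of all genes. No member differed by 1 log2 unit or more. The plot of differences by gene shows how the standard errors compare with the differences.

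Below an unadjusted limma p of 0.05 stood 3 higher members (RPS3A, RPL35 and RPL10A) and 0 lower ones, against 1.55% of all genes higher and 2.18% lower. Every MondoA shRNA array lay above both control arrays in 8 members (12.1%), against 4.85% of all genes. These were RPS3A, RPL35, RPL10A, RPS7, RPL36, RPL27, RPS24 and the paralogue RPL22L1. Every MondoA shRNA array lay below both control arrays in 3 members (4.55%), RPS20, RPS9 and RPLP1, against 5.18% of all genes. The shares over all genes take in many dim genes with equal values. At least 3 arrays shared 1 value in 54% of all genes and in 6.06% of the members, and such genes separate less easily. Among the bright genes that are no members, 3.6% were separated upward and 11.5% downward.

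**Figure D1:**
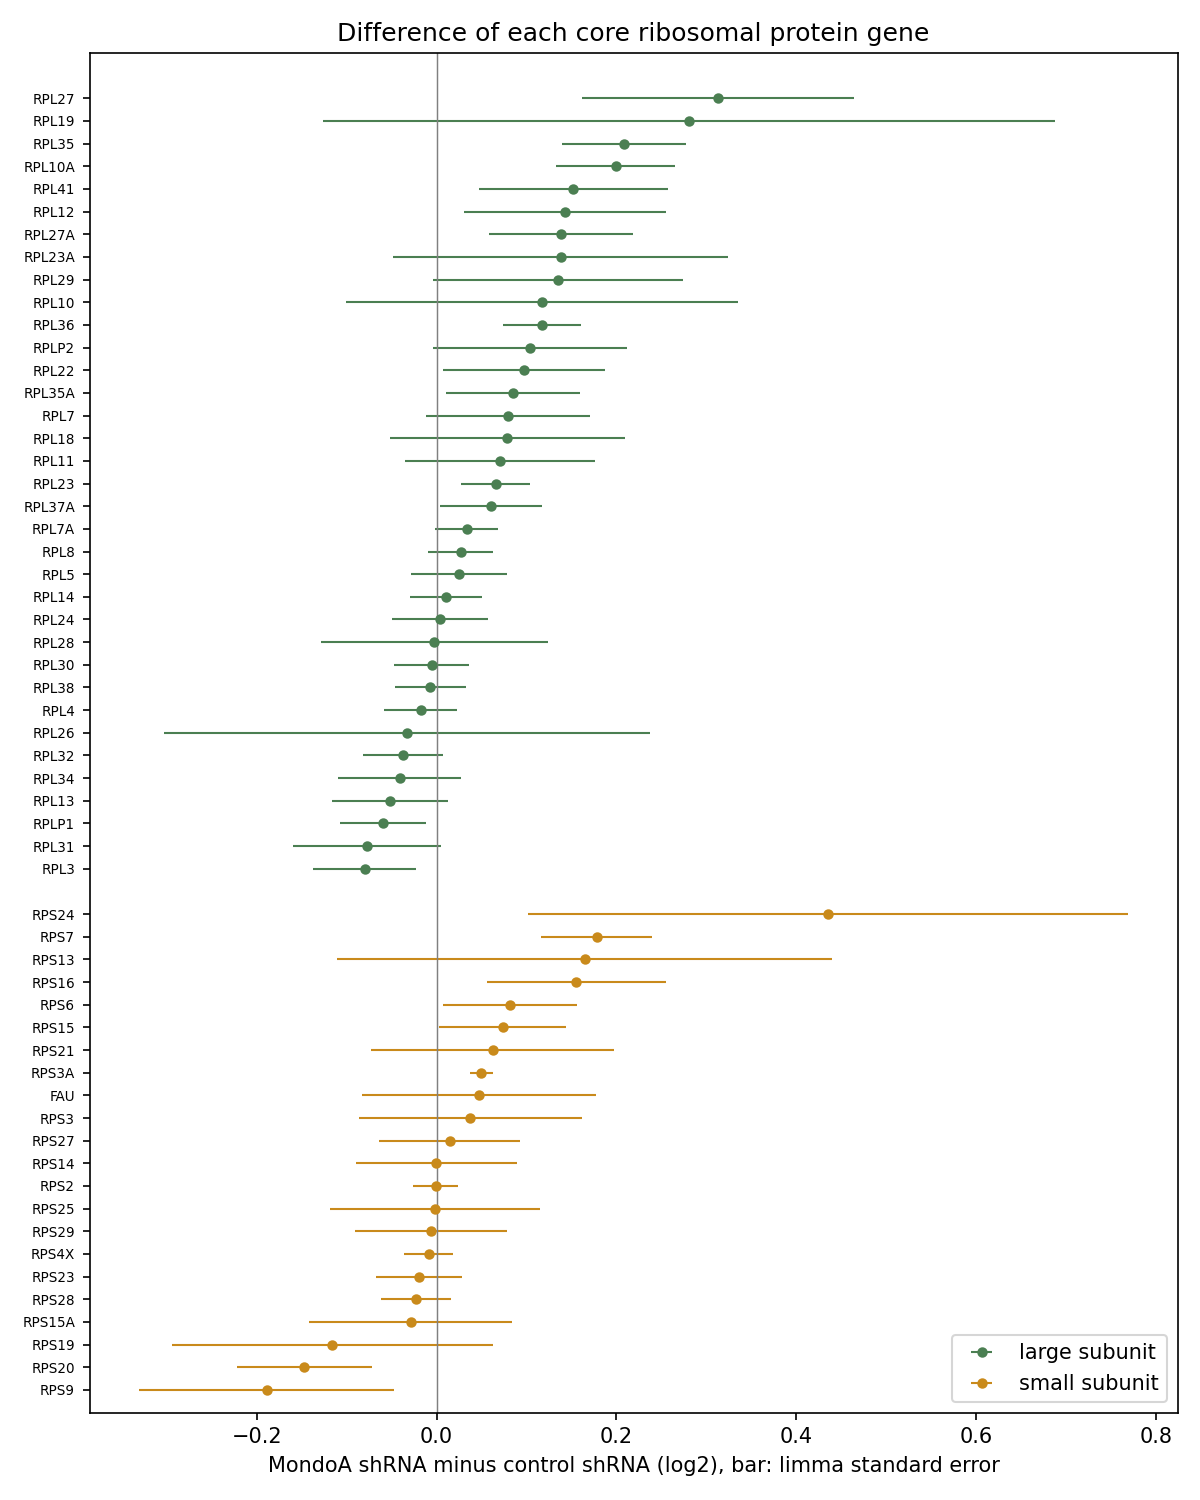
Difference of each of the 57 core genes (horizontal axis, MondoA shRNA minus control shRNA, log2), with the large subunit above the small subunit and each sorted by difference. Points are differences and bars are limma standard errors. The points lie between -0.19 (RPS9) and 0.44 (RPS24), and the longest bars belong to RPL19 and RPS24.

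RPS24, a small-subunit protein and a Diamond-Blackfan anaemia gene, had the largest difference of any member. It read 7.94, 8.83 and 8.04 in MondoA shRNA clones 1, 2 and 3, against 7.80 and 7.88 in control clones 1 and 2. All 3 MondoA shRNA arrays lay above the controls, but clones 1 and 3 by little and clone 2 by far. The difference was 0.44 ± 0.33 (SE), with a 95% interval of -0.54 to 1.41 (limma adjusted p = 0.833), and it was 0.16 without MondoA shRNA clone 2. With the arrays centred on the bright genes that are no members it was 0.48 and passed (limma adjusted p = 0.0277), as 1 of 425 genes that passed under that centring. Under it RPL19 and RPL22L1, both at 0.32, had close limma adjusted p of 0.389 and 0.354, although their main SEs were 0.41 and 0.20. Adjusted p there thus followed the size of these differences more than the spread between clones, and why RPS24 passed was not tested.

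RPS7, another Diamond-Blackfan anaemia gene, read 8.30, 8.45 and 8.39 in MondoA shRNA clones, against 8.25 and 8.15 in control clones. The groups did not overlap, and the difference was 0.18 ± 0.06 (SE; limma adjusted p = 0.833). RPS3A, which lies near the messenger RNA exit, read 10.74, 10.71 and 10.74 in MondoA shRNA clones, against 10.67 and 10.68 in control clones. Its difference of 0.05 ± 0.01 (SE) was small, with a span of 0.06 over the 5 arrays, and had the lowest p of any member by limma, 0.0235 (adjusted p = 0.833). Its other 4 probe sets differed by -0.0045 to 0.04, and with all averaged the difference was 0.02. RPS13 read 10.25, 11.02 and 10.52 in MondoA shRNA clones, against 10.54 and 10.33 in control clones. Here clone 2 was highest and clone 1 was lowest, the groups overlapped, and the difference of 0.16 was -0.05 without clone 2.

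The largest negative differences were also in the small subunit. RPS9, a protein of the decoding side of the subunit, read 10.61, 10.24 and 10.58 in MondoA shRNA clones, against 10.67 and 10.66 in control clones. Its difference was -0.19 ± 0.14 (SE; limma adjusted p = 0.833), and it was -0.07 without MondoA shRNA clone 2, the lowest array. RPS20 read 10.63, 10.62 and 10.49 in MondoA shRNA clones, against 10.65 and 10.80 in control clones, a difference of -0.15 in which control clone 2 stood highest. That difference was -0.07 without control clone 2 and -0.22 without control clone 1. RPS19, the gene most often mutated in Diamond-Blackfan anaemia, read 10.27, 9.75 and 10.04 in MondoA shRNA clones, against 10.14 and 10.14 in control clones. MondoA shRNA clones 1 and 2 lay on opposite sides of the controls, and the difference of -0.12 was 0.02 without clone 2.

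Other small-subunit genes had mean differences of at most 0.16 in either direction, some with a wide spread between clones. RPS4X, the X-linked gene with copies on the Y chromosome, spanned 0.06 over all 5 arrays, and RPS2 spanned 0.07 with a difference of 0.00. RPS6, the protein phosphorylated by the kinase downstream of mTORC1, read 10.72, 10.89 and 10.70 in MondoA shRNA clones, against 10.72 and 10.66 in control clones, a difference of 0.08 ± 0.07 (SE). FAU, whose product is cut into a ubiquitin-like protein and a ribosomal protein, differed by 0.05, and RPS3, at the messenger RNA entry, by 0.04. FAU spanned 0.37 over the 5 arrays, RPS3 spanned 0.35 and RPS21 spanned 0.39, with clone 2 labelled MondoA shRNA highest in FAU and RPS3 and lowest in RPS21. RPS16 had a difference of 0.16. RPS29 and RPS21 differed by -0.01 and 0.06.

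In the large subunit the leading differences were positive. RPL27 read 8.97, 9.31 and 8.97 in MondoA shRNA clones, against 8.67 and 8.87 in control clones, a difference of 0.31 ± 0.15 (SE; limma adjusted p = 0.833) that was 0.20 without MondoA shRNA clone 2. RPL35, a protein at the rim of the exit tunnel where the signal recognition particle docks, read 10.17, 10.34 and 10.19 in MondoA shRNA clones, against 10.06 and 9.99 in control clones. RPL10A, the protein of the mobile stalk at the exit site for transfer RNA, read 9.46, 9.49 and 9.34 in MondoA shRNA clones, against 9.29 and 9.17 in control clones. In all 3 genes the lowest MondoA shRNA array was above the highest control array. The difference was 0.21 ± 0.07 (SE) for RPL35 and 0.20 ± 0.07 (SE) for RPL10A, and both had limma adjusted p = 0.833.

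RPL19, which reaches from the large subunit to the small one in a bridge, had the widest range of any member, 1.15. It read 10.27, 9.12 and 9.43 in MondoA shRNA clones, against 9.29 and 9.36 in control clones. Clone 1 was far above the other arrays and clone 2 was the lowest array, opposite to the place of clone 2 in RPS24. The difference of 0.28 ± 0.41 (SE; limma adjusted p = 0.856) was -0.05 without MondoA shRNA clone 1.

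RPL26 and RPL10 also changed sign when single arrays were left out. RPL26, a protein beside the exit tunnel that also binds p53 messenger RNA, read 7.66, 7.54 and 6.97 in MondoA shRNA clones, against 7.29 and 7.56 in control clones, with MondoA shRNA clone 3 lowest. RPL10, which joins the subunit late and is mutated in some T-cell leukaemias, read 6.51, 6.66 and 7.12 in MondoA shRNA clones, against 6.65 and 6.64 in control clones, with MondoA shRNA clone 3 highest. Their differences were -0.03 and 0.12, and without MondoA shRNA clone 3 they were 0.18 and -0.06. RPL26 was 0.10 without control clone 2.

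The largest negative differences of the large subunit were small. RPL3, near the peptidyl transferase centre, read 11.63, 11.53 and 11.61 in MondoA shRNA clones, against 11.73 and 11.61 in control clones, and differed by -0.08. RPL31, at the mouth of the exit tunnel, also differed by -0.08, with readings of 9.80, 9.78 and 9.59 in MondoA shRNA clones and 9.78 and 9.82 in control clones. The difference of RPL31 was -0.0094 without MondoA shRNA clone 3 and -0.20 with its probe sets averaged. RPL4 and RPL5 differed by -0.02 and 0.02, RPL18 by 0.08, RPL38 by -0.01 and RPL32 by -0.04.

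**Figure D2:**
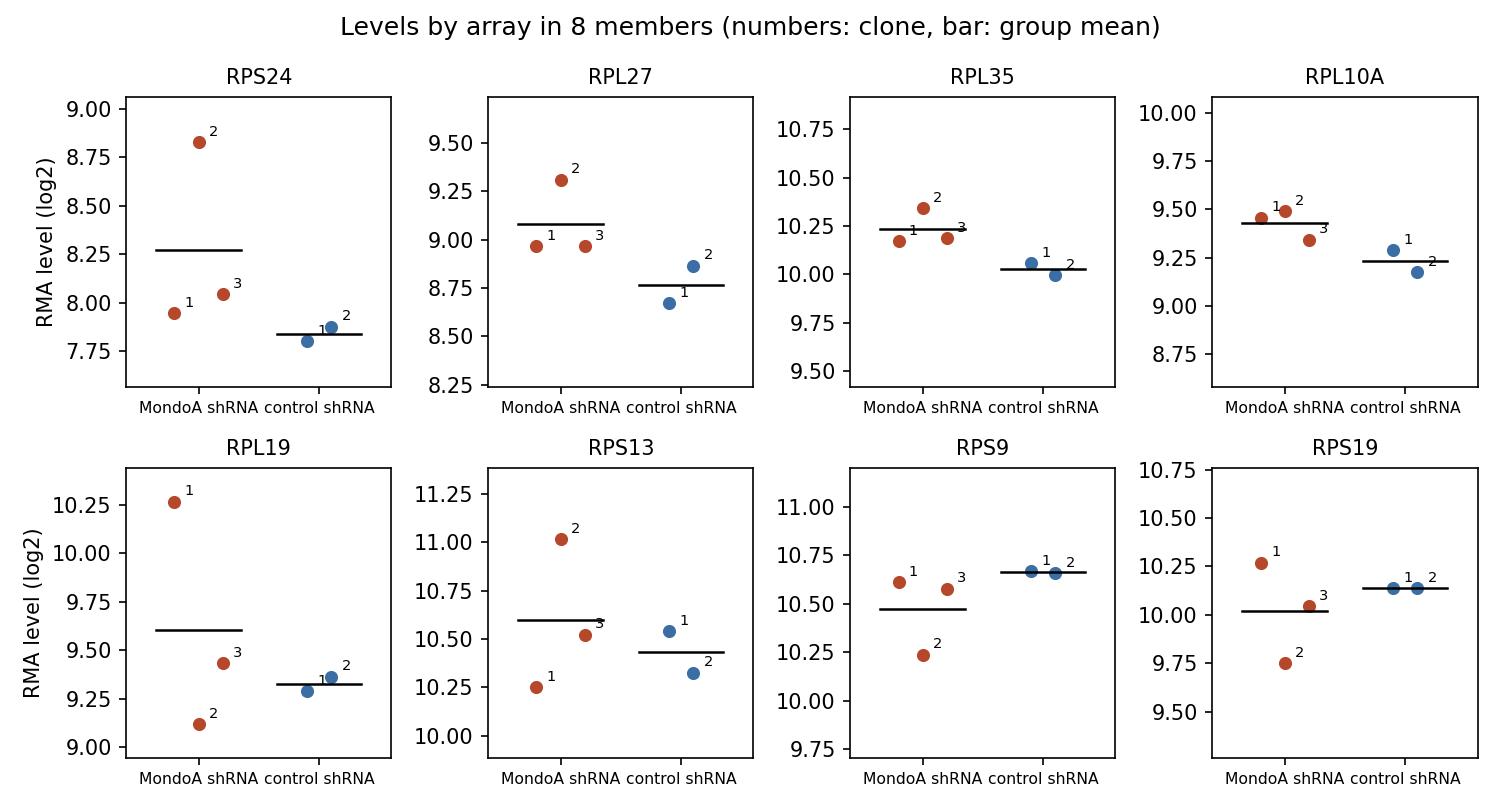
RMA level (vertical axis, log2, every panel spanning the same height) of 8 genes in the 3 MondoA shRNA clones and the 2 control shRNA clones, numbered by clone, with a bar at each group mean. In RPS24, RPL27, RPL35 and RPL10A the groups do not overlap, in RPL19 clone 1 stands alone at 10.27, and clone 2 is highest in RPS13 and lowest in RPS9 and RPS19.

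The acidic stalk proteins recruit the GTPases of translation and are the proteins present in more than 1 copy per ribosome. RPLP1 read 11.74, 11.62 and 11.74 in MondoA shRNA clones, against 11.75 and 11.76 in control clones, and RPLP2 read 11.53, 11.80 and 11.53 in MondoA shRNA clones, against 11.54 and 11.50 in control clones. The partners differed by -0.06 and 0.10, and without MondoA shRNA clone 2 by -0.02 and 0.01. In RPLP1 clone 2 was the lowest array and in RPLP2 it was the highest, while MondoA shRNA clones 1 and 3 lay within the range of the controls or just below it.

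RPL5, RPL11 and RPL23, which can bind MDM2, differed by 0.02, 0.07 and 0.07, and 0 of the 3 separated the groups. Of 19 listed Diamond-Blackfan anaemia genes, 15 were members with a value. Their median difference was 0.02, with 9 above 0 and 6 below, and 0 passed the adjusted test. Every MondoA shRNA array lay above the controls in 4 of the 15 and below them in 0, against 4.85% and 5.18% of all genes.

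Paralogues stand in for core proteins in some tissues. RPL22L1, whose mouse counterpart is held down by Rpl22, read 4.97, 5.49 and 5.04 in MondoA shRNA clones, against 4.96 and 4.82 in control clones. Clone 2 was again far above the rest, and the difference of 0.28 ± 0.20 (SE; limma adjusted p = 0.833) was 0.12 without it. RPL22 itself read 5.46, 5.59 and 5.38 in MondoA shRNA clones, against 5.46 and 5.30 in control clones, so clone 2 was the highest array for both genes. RPL36AL read 9.79, 10.33 and 10.03 in MondoA shRNA clones, against 9.92 and 9.96 in control clones, a difference of 0.11 that was -0.03 without clone 2. RPL3L, the form of heart and skeletal muscle, and RPL10L and RPL39L, forms of the testis, differed by -0.01, 0.08 and -0.03. Their mean levels of 3.94, 3.37 and 4.02 lay below the median gene level of 4.15. RPL7L1 differed by 0.07 and RPL26L1 by 0.00.

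Large and small subunits were compared as whole sets, without a test. The 35 large-subunit genes had a median difference of 0.07, with 24 above 0 and 11 below and a range of -0.08 to 0.31. The 22 small-subunit genes had a median difference of 0.01, with 11 above 0 and 11 below and a range of -0.19 to 0.44. The gap of 0.06 between the medians was 0.00 without MondoA shRNA clone 2 and 0.02 without control clone 2.

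By array, the median deviation of large-subunit genes from their 5-array mean was -0.01, 0.07 and -0.01 in MondoA shRNA clones 1 to 3, against -0.01 and -0.07 in control clones 1 and 2. That of small-subunit genes was -0.01, 0.03 and 0.00 in MondoA shRNA clones, against 0.01 and -0.02 in control clones. MondoA shRNA clone 2 thus had the highest median and control clone 2 the lowest in both subunits, and the medians of the other 3 arrays were nearest to 0. For the bright genes that are no members the deviations were -0.11, 0.06 and 0.04 in MondoA shRNA clones, against 0.05 and -0.04 in control clones. By this measure MondoA shRNA clone 2 was the highest array there too, just above control clone 1, and MondoA shRNA clone 1 was the lowest. The median level of these bright genes was instead higher in control clone 1 (10.57) than in MondoA shRNA clone 2 (10.54). Over all genes the median deviation of MondoA shRNA clone 2 was 0.00. The part of these shifts of bright genes in the members' values was not tested.

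**Figure D3:**
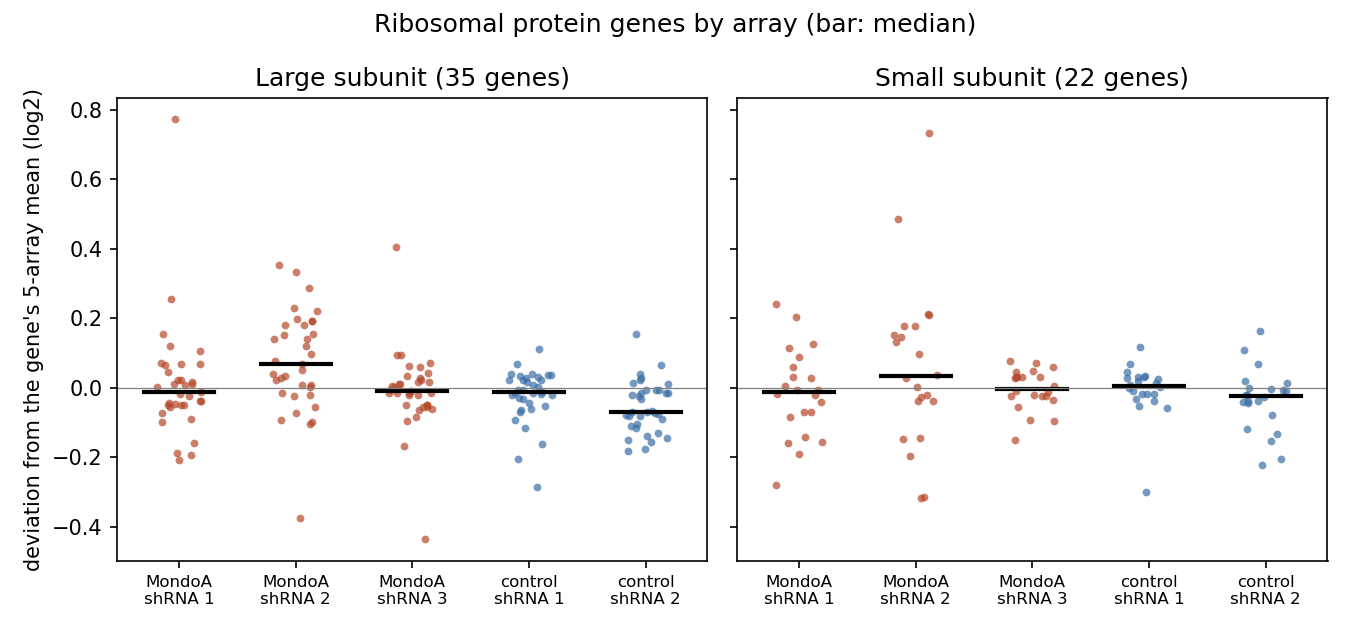
Deviation of each core gene from its own mean over the 5 arrays (vertical axis, log2), by array, for the 35 large-subunit genes and the 22 small-subunit genes, with a bar at the median. Medians lie between -0.07 and 0.07, and the dots farthest from 0 belong to MondoA shRNA clones, among them RPL19 in clone 1 and RPS24 in clone 2.

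Clone 2 labelled MondoA shRNA was the highest of the 5 arrays in 32 of the 66 members (48.5%) and the lowest in 14 (21.2%). Over all genes it was highest in 23.6% and lowest in 16.9%, and over the bright genes that are no members it was highest in 40.3% and lowest in 15.1%. By subunit, it was highest in 17 and lowest in 5 of the 35 large-subunit genes, and highest in 11 and lowest in 7 of the 22 small-subunit genes. It exceeded the mean of the other 4 arrays by over 0.3 in 7 of the 66 members and lay more than 0.3 below it in 3, RPL19, RPS19 and RPS9. The same counts were 1757 and 605 of all 18417 genes, and 18 and 8 of the 139 bright genes that are no members. Control clone 2 was the lowest array in 19 members (28.8%), in 15.1% of all genes and in 27.3% of the bright genes that are no members.

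The MondoA shRNA clones differed among themselves more than the control clones did. The median SD of a member was 0.10 over the 3 MondoA shRNA clones and 0.04 over the 2 control clones, and the range was wider among MondoA shRNA clones in 57 of 66 members. It was so too in 12129 of all 18417 genes, in 119 of the 139 bright genes that are no members and in 65 of the 73 mitochondrial ribosomal protein genes. A range over 3 arrays is wider than one over 2 for that reason alone, and a median SD over 3 also tends to be higher than one over 2. Median SDs were 0.08 and 0.03 over all genes, 0.15 and 0.08 over the bright genes that are no members, and 0.19 and 0.04 over the 73 mitochondrial ribosomal protein genes. The wider spread was thus seen in those other genes too. The range over all 5 arrays exceeded 0.5 in 10 members (15.2%), against 16.1% of all genes. It was under 0.2 in 25 of the 66 members, against 8776 of all 18417 genes.

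**Figure D4:**
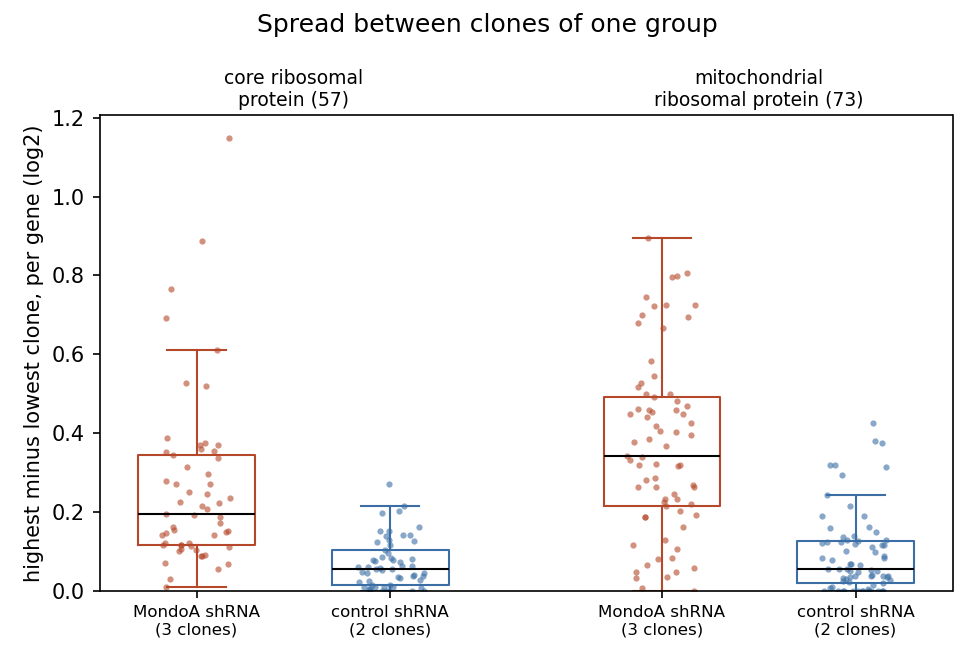
Highest minus lowest clone within a group (vertical axis, log2), 1 dot per gene, for the 57 core genes and the 73 mitochondrial ribosomal protein genes. Boxes show quartiles and the median, and whiskers reach the farthest dot within 1.5 box lengths. In both sets the 3 MondoA shRNA clones spread more widely than the 2 control clones, and among MondoA shRNA clones the mitochondrial genes spread more widely than the core genes.

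Of the members, 23 had several probe sets with the gene's symbol alone, and these often read at very different levels. The gap between the brightest and the dimmest exceeded 1 log2 unit in 14 genes and 3 in 10. The probe sets of RPL34 averaged 11.38 and 3.61, and those of RPS15 averaged 10.60 and 3.17. Ribosomal protein genes have many near-identical processed pseudogenes, and which copies each probe set matches was not tested.

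The differences of such probe sets were mostly close to each other. Their gap within a gene had a median of 0.07, exceeded 0.2 in 3 genes and was at most 0.38, although the sign differed in 10. In RPL12, a protein at the base of the stalk, 3 bright probe sets differed by 0.12 to 0.14. The dim one read 5.31, 5.50 and 5.08 in MondoA shRNA clones, against 4.96 and 4.63 in control clones, a difference of 0.50. In RPL41, the shortest ribosomal protein, a pair of bright probe sets held identical values and differed by 0.15, while the dim one read 5.26, 5.57 and 5.52 in MondoA shRNA clones, against 4.93 and 4.94 in control clones, a difference of 0.52. For both genes the dim probe set separated the groups and differed more than the bright ones used here. In RPL31 the dim probe set read 5.53, 5.70 and 5.80 in MondoA shRNA clones, against 5.87 and 6.12 in control clones. It too separated the groups and differed more than the bright one, in the negative direction at -0.32. In RPS9 the second probe set differed by -0.27, beside -0.19 for the first.

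**Figure D5:**
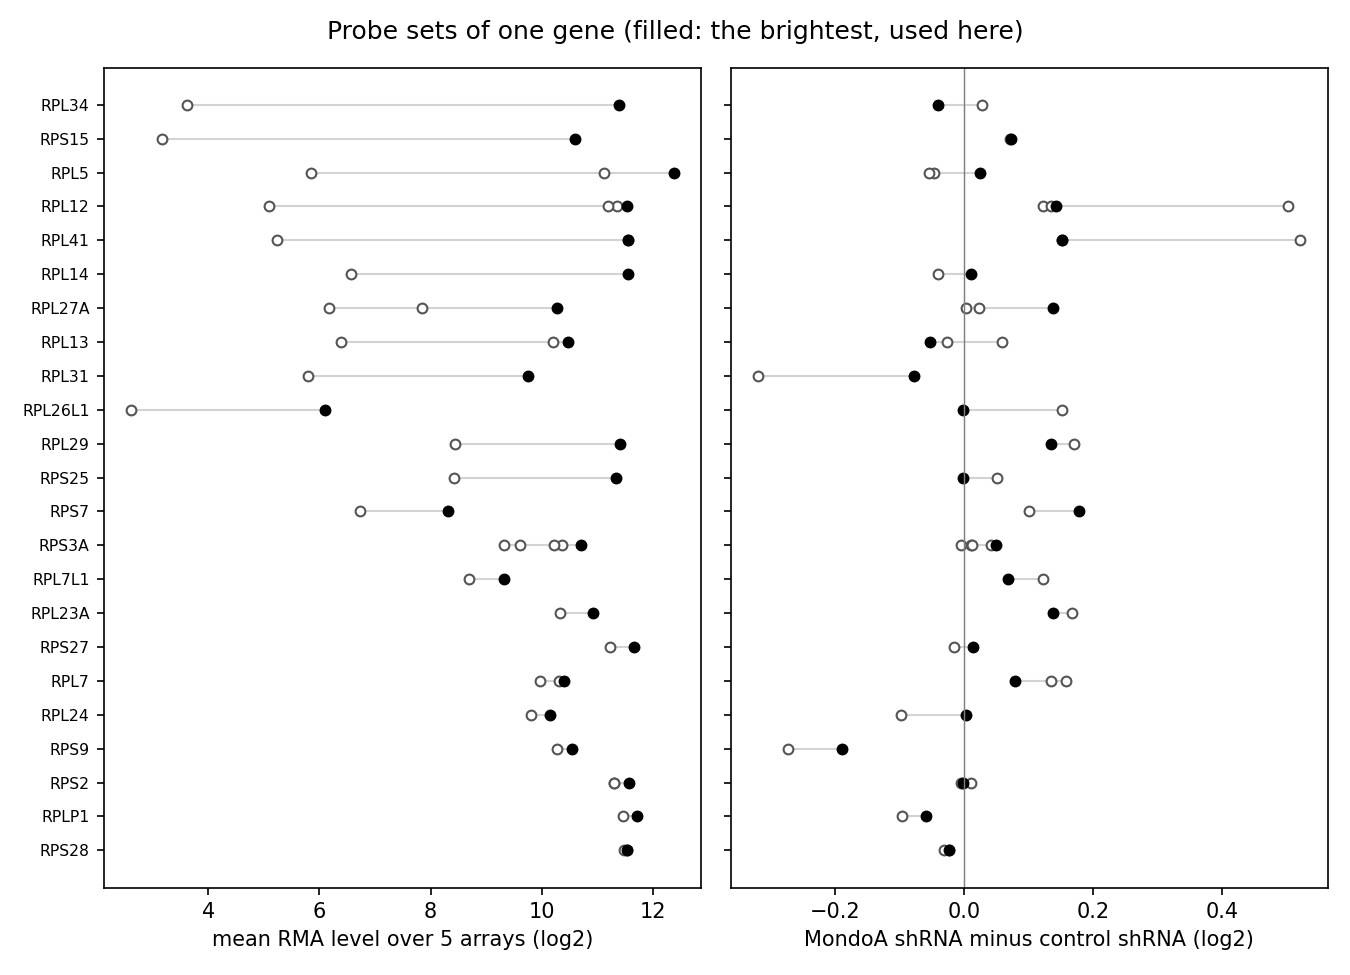
Mean RMA level over 5 arrays (left, log2) and difference MondoA shRNA minus control shRNA (right, log2) of every probe set of the 23 members with several, 1 row per gene, sorted by the gap in level. The filled point is the brightest probe set, used for the gene, and open points are the others. Levels lie up to 7.77 apart in RPL34, while differences stay within 0.2 of each other except in RPL12, RPL41 and RPL31.

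Among the 48 core genes with a start window, the 37 with a tract at the start had a median difference of 0.05, with a range of -0.19 to 0.44. The 11 without one at an annotated start base had a median of -0.01 and a range of -0.08 to 0.31. With the start allowed to move as above, 44 of the 48 held a tract, so most of the 11 had one nearby. The split is thus by a tract at the annotated start base, and genes with and without any tract were not compared. Genes with a tract at the start held both ends of the range, RPS24 and RPS9, whose windows are shown above. The median SD over MondoA shRNA clones was 0.13 with a tract at the start and 0.07 without one there. Clone 2 exceeded the mean of the other 4 arrays by a median of 0.15 in genes with a tract at the start and 0.05 in the others.

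In all 3 E-box genes, RPL19, RPS19 and RPS28, MondoA shRNA clones 1 and 2 lay on opposite sides of the controls. RPS28 did so narrowly, at 11.4675 and 11.5728 against 11.5664 and 11.5335 in control clones, and differed by -0.02. Members without an E-box match did so too, among them FAU, RPS3 and RPS13, and their share was not counted. With 3 such genes no comparison was made.

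Other genes of the translation apparatus were read from lists of known members. Of 29 measured elongation factors and other genes with TOP messages, 12 lay above 0 and 17 below with a median of -0.02, 0 passed the adjusted test, and 2 were lower at an unadjusted p under 0.05 by limma, against 2.18% of all genes. These were EIF4B, a cofactor of the helicase that unwinds messenger RNA, and NOP53, a ribosome assembly factor. EIF4B read 10.35, 10.38 and 10.27 in MondoA shRNA clones, against 10.61 and 10.52 in control clones, and NOP53 read 9.83, 9.77 and 9.65 in MondoA shRNA clones, against 9.97 and 10.002 in control clones. Each differed by -0.23 with groups that did not overlap. VIM, which encodes the filament protein vimentin, was the third gene of the list with groups apart downward, at -0.31. Such genes made up 10.3% of the 29, against 5.18% of all genes and 11.5% of the bright genes that are no members.

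Of 23 measured regulators of TOP messages, 0 passed the adjusted test and the median was 0.01. The lowest p values were those of TSC1, an inhibitor of mTORC1 signalling, at -0.33, and EIF4EBP2, a repressor of cap-dependent translation, at -0.19. Both were among 3 of the 23 (13%) with groups apart downward, against 5.18% of all genes and 11.5% of the bright genes that are no members. The groups lay apart upward in 1 (4.35%), against 4.85% of all genes. Of 15 measured genes for the transcription of ribosomal RNA, 12 lay above 0 with a median of 0.12, against 9870 of all 18417 genes above 0. Of the 15, 0 passed and 4 (26.7%) separated the groups upward, against 4.85% of all genes. MondoA shRNA clone 3 was the highest array in 8 of the 15 and control clone 2 the lowest in 8 (53.3% each). Over all genes these shares were 14% and 15.1%. RRN3, the initiation factor of polymerase I, differed by 0.12 and TAF1A, a subunit of its selectivity factor, by 0.16.

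The mitochondrial ribosome is built from a separate set of nuclear genes. Of 73 measured, 59 lay above 0 and 14 below with a median of 0.07, 0 passed the adjusted test and 0 reached an unadjusted p under 0.05. The groups lay apart upward in 8 of them (11%), against 4.85% of all genes, and downward in 2 (2.74%), against 5.18%. MRPL20, one of the 8, differed by 0.31 and MRPS30, one of the 2, by -0.20. Clone 2 was the highest array in 64.4% of these genes, with a median deviation of 0.21, against 48.5% of the cytosolic members.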

How the data were processed

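RNA from 5 Nalm6 clones was hybridised to whole-transcript arrays, 1 array per clone. Per the submitters' processing notes, the authors summarised probes with RMA in Affymetrix Expression Console 1.1. RMA subtracts background, equalises the distributions of the arrays and combines the probes of a set. The deposited log2 values (33297 probe sets, from 1.42 to 13.34) were used as they stand; the base of the logarithm is not given in the sources used here and was taken as 2. No detection calls, scan dates or probe intensities were used here, and the number of arrays limits the precision.

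Probe sets were named by the platform annotation, with 1 symbol for 19460, several for 1754 and none for 12083, and 19429 of the first were matched by Entrez number to RefSeq genes of GRCh38.p14. The brightest probe set stood for each of 18417 genes. All were fitted with lmFit and eBayes of limma 3.58.1 in R 4.3.3, with two-sided p-values adjusted over all genes by Benjamini and Hochberg and a threshold of 0.05. The fit had 3 residual and 0.56 prior degrees of freedom, and was tested on simulated data. Nothing says the clones were separate transductions, so p-values measure the spread between these clones. Members and lists were chosen with earlier results of these data known, and no test over a list was run.

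Genes were named by a rule. It took MLXIP, and among core members the 4 brightest, 4 dimmest, 6 most positive, 6 most negative, 4 widest and 4 narrowest over arrays. It also took all paralogues, stalk proteins, RPS6, RPS19, RPL5, RPL11, RPL10, RPL22 and FAU, and the 2 lowest p of each companion list. RPL23, RPL34, RPL36, RPL12, RPL41, RPS15, RPS16, RPS28, VIM and 5 B-precursor markers were named after their values were seen. Alternatives left out each array, normalised or centred the arrays again, kept genes above the median level, averaged probe sets, added probe sets of several symbols, left out paralogues, used the replicate number as a block, or changed the moderation.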

Additional observations from a re-analysis of the deposited data

How the results depend on the processing

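The median difference of the members, 0.04, stayed above 0 under every alternative run, at 0.079 with the arrays centred on bright genes that are no members and at 0.013 to 0.049 with 1 array left out. The count of members past the adjusted threshold, 0, became 1 (RPS24) with that centring and 0 under the other alternatives. Over all genes the count of 0 became 2 after a further quantile normalisation, 2 after centring on the median of all genes, 425 after centring on bright genes, 3 without moderation and 0 to 752 with 1 array left out (752 without control clone 1 and 454 without control clone 2). The count of members at an unadjusted p under 0.05, 3, became 5 with probe sets averaged, 1 without moderation, 1 with a trended and robust prior, and 1 to 4 with 1 array left out. The large minus small subunit gap of 0.06 became 0.026 with the replicate number as a block and -0.0009 to 0.070 with 1 array left out. The 11 members whose groups did not overlap became 15 to 27 with 1 array left out, since fewer arrays separate more easily. Clones of 1 number did not deviate together (correlations over genes of -0.287 and -0.233), so the numbers were not used as pairs, and the block fit gives the differences without MondoA shRNA clone 3.

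Of 47 named genes, 22 changed sign under an alternative, and the cause was not tested. With the replicate block MLXIP was 0.027, RPL10 -0.061, RPL26 0.18, RPL26L1 0.0017 and RPS29 0.040. After a further quantile normalisation RPL26L1 was 0.0049, RPL38 0.031, RPL5 -0.018, RPS2 0.0069 and RPS29 0.0036. With the arrays centred on bright genes MLXIP was 0.018, RPL26 0.011, RPL26L1 0.042, RPL32 0.0063, RPL38 0.037, RPL39L 0.017, RPL3L 0.031, RPL4 0.026, RPS2 0.042, RPS29 0.037 and RPS4X 0.035. With probe sets averaged RPL26L1 was 0.075, RPL5 -0.025 and RPS2 0.0013. With 1 array left out FAU ran from -0.032 to 0.15, MLXIP from -0.065 to 0.027, RPL10 from -0.061 to 0.24, RPL11 from -0.014 to 0.13, RPL18 from -0.0021 to 0.17, RPL19 from -0.049 to 0.53 and RPL26 from -0.17 to 0.18. RPL26L1 ran from -0.048 to 0.041, RPL36AL from -0.031 to 0.24, RPL38 from -0.043 to 0.029, RPL39L from -0.076 to 0.048, RPL3L from -0.034 to 0.021, RPL4 from -0.047 to 0.0076 and RPL5 from -0.019 to 0.057. RPS13 ran from -0.046 to 0.34, RPS19 from -0.24 to 0.020, RPS2 from -0.018 to 0.017, RPS21 from -0.046 to 0.15, RPS29 from -0.071 to 0.040, RPS3 from -0.060 to 0.12 and RPS4X from -0.036 to 0.018.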
